A study of Homo sapiens with 6 samples.

Results

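The genes described here encode mitochondrial ribosomal proteins. They were taken from the deposited expression table as all protein-coding rows whose symbol starts with MRPL or MRPS followed by a digit. This gave 78 of 58174 genes, with 49 named for the large and 29 for the small subunit, and the rule itself uses no expression value. Their mRNAs were quantified by polyA RNA-seq in A549 cells, an established line derived from a human lung adenocarcinoma and grown in serum-containing DMEM. Parental cells (Ctrl) were compared with MIR21-KO cells, in which Cas9 and a pair of guide RNAs had removed the MIR21 gene. Each group had 3 libraries, and all cells were harvested 48 h after seeding. The MIR21-KO cells descended from single sorted cells, how many such clones entered the libraries is not given in the sources used here, and Ctrl was the parental population. Features of a clone and effects of the deletion cannot be told apart in this design. The study describes its replicates as biological and these samples as independent, but not whether they were separate clones or cultures of the same clone. The p-values thus measure the spread among these libraries.

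Mitochondria hold a ribosome of their own, which translates the few respiratory chain proteins encoded by mitochondrial DNA. Its rRNAs come from the mitochondrial genome, whereas all of its proteins are translated in the cytosol from nuclear mRNAs and imported. Some of these proteins have counterparts in bacterial ribosomes and others occur in mitochondria alone. MiR-21-5p, the main product of MIR21, lowers mRNAs that carry matches to its seed in the 3′ UTR.

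Levels were given as FPKM, a scale on which fragment numbers are divided by gene length and by library size. The reads behind these values summed to 10631667 to 14345209 per library, and on a gene of 1 kb a read then stood for 0.0731 to 0.0930 FPKM. The targeted gene checks nothing here, since polyA libraries do not capture the short miRNA and MIR21 was listed at 0 in all 6 libraries. The 37 mitochondrially encoded genes were listed at 0 too, which left the rRNAs and products of this ribosome unmeasured. The 5 epithelial markers, keratins above all, summed to 1194 to 1288 FPKM in Ctrl and 775.9 to 1106 in MIR21-KO, and among them CDH1 had 7.63 to 8.80 FPKM in Ctrl and 2.72 to 3.02 in MIR21-KO. All 5 markers of alveolar type II cells, which make surfactant, stayed under 0.5 FPKM. The same held for all 3 endothelial and 3 of 4 immune markers, while CD14 reached 3.19 to 5.10 FPKM in MIR21-KO and 3.25 to 3.80 in Ctrl. Of 3 fibroblast markers 1 was under 0.5 FPKM in every library, and their sum was 3.51 to 3.71 in Ctrl and 3.98 to 5.23 in MIR21-KO. Whether these markers bear on the mitoribosomal mRNAs was not tested.

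To see which members could pair with the deleted miRNA, the longest annotated 3′ UTR of each was searched for the seed match. The mature miRNA (chr17:59841273-59841294, plus strand, GRCh38.p14, RefSeq) is shown with its seed, bases 2 to 8, in capitals, followed by the sites of 4 members with the match in capitals. MRPL9 and MRPS33 are shown because they hold the longest kind of match, and MRPL42 and MRPS10 because they were among the mRNAs that fell.
hsa-miR-21-5p: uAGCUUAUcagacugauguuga
MRPL9: ctgtagatttgATAAGCTAgatgcagtaga
MRPS33: tacatttgtacATAAGCTAtaccttcaatt
MRPL42: cctactagcctATAAGCTccatgacttct
MRPS10: tcattcattcaATAAGCTtttactgcata

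A seed match followed by A (8mer) was found in 2 of the 78 members, a match to all 7 seed bases (7mer-m8, ATAAGCT) in 5 and the shorter match followed by A (7mer-A1, TAAGCTA) in 1. The other 70 members had none of these. Among 11644 protein-coding genes tested with an annotated 3′ UTR, 2.87% had an 8mer, 7.02% a 7mer-m8, 4.54% a 7mer-A1 and 85.6% none. Neither 8mer gene was called, that is, changed at an FDR under 0.01. MRPL9 had a log2 fold change (MIR21-KO over Ctrl) of -0.06 (FDR = 0.69, limma) and MRPS33 of -0.05 (FDR = 0.777). Among the 7mer-m8 genes, MRPL42 and MRPS10 fell, whereas MRPL17 (-0.18), MRPL30 (0.04) and MRPS25 (-0.21) were not called, nor was the 7mer-A1 gene MRPL49 (-0.19). The 3′ UTR searched was 14992 bases long for MRPL42 and 1488 for MRPS10. Whether these longest annotated forms are the ones expressed here was not tested. These matches are strings in annotated sequence, and binding was not measured.

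Promoters were searched for words of factors known from housekeeping and mitochondrial genes, on both strands, from 250 bases before to 50 after the annotated start. Of the 78 members, 69 had a RefSeq promoter. The YY1 word AAGATGGC was present in 21 of them (30.4%), compared with 4.66% of 15843 protein-coding genes. In 16 of the 21 it lay on the coding strand 6 to 35 bases after the start. The windows of 4 members that fell and of MRPS18A, whose level was close between the groups, are shown with the word in capitals (GRCh38.p14, RefSeq, 5′ to 3′ of the gene).
MRPL42 (chr12:93467511-93467540, plus): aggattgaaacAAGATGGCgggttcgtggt
MRPL22 (chr5:154941097-154941122, plus): cgggagggcgaAAGATGGCggcggca
MRPS10 (chr6:42217834-42217863, minus): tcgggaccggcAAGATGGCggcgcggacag
MRPS27 (chr5:72320206-72320235, minus): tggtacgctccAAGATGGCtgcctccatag
MRPS18A (chr6:43687764-43687793, minus): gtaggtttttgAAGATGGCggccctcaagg

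Of the 20 members with this word that were tested, 18 had a negative log2 fold change and 4 were called lower, compared with 65 and 11 of all 77 members tested. Of all genes, 51.5% were below 0 and 8.38% were called lower. The 20 members with the word had a median of -0.38, with values from -0.65 for MRPL42 to 0.20 for MRPL45. Factor binding was not measured in these cells, and a shared word is a description of the sequence only. The word contains ATG, and whether it overlaps the start codons of these genes was not tested. The 15843 protein-coding genes were all those with a RefSeq promoter, whether or not they were expressed here.

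The next question was how the mitoribosomal mRNAs differed between MIR21-KO and Ctrl cells. Most were somewhat less abundant in MIR21-KO cells: 65 of the 77 members tested had a negative log2 fold change and 12 a positive one. Decreases were modest, with a median log2 fold change of -0.27 over the members, compared with -0.02 over all 16006 genes tested and -0.04 over the 11719 protein-coding ones. In bulk RNA, fewer cells of a kind and less RNA per cell cannot be told apart. At an FDR under 0.01, 11 members were called lower and 0 higher. These 11 make 14.3% of the members. Of all genes, 8.38% were called lower and 7.66% higher, and of protein-coding ones 10.57% were called lower. In 33 members all MIR21-KO values lay below all Ctrl values, which was the case for 25.2% of all genes. MRPS17 alone showed the opposite separation, found in 22.8% of all genes. At an unadjusted p under 0.05, limma placed 33 members lower and 1 higher. In either direction, such a p was found for 34 of the 77 members, 6910 of the 16006 genes and 5756 of the 11719 protein-coding ones. Later counts at an unadjusted p stand beside this background. An FDR under 0.05 gave 26 members, 25 of them lower, while 16.8% of all genes were lower at that threshold. MRPS24, which encodes the counterpart of a core small subunit protein of bacteria, had 0.107 to 0.331 FPKM and 3 to 11 reads per library, and was left out as too low to test. Of its exonic bases, 23.2% are shared with another gene on the same strand, so part of its reads may be uncertain. Fold changes were computed on log2(FPKM + 0.1), MIR21-KO over Ctrl, which understates changes of low genes.

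**Figure D1:**
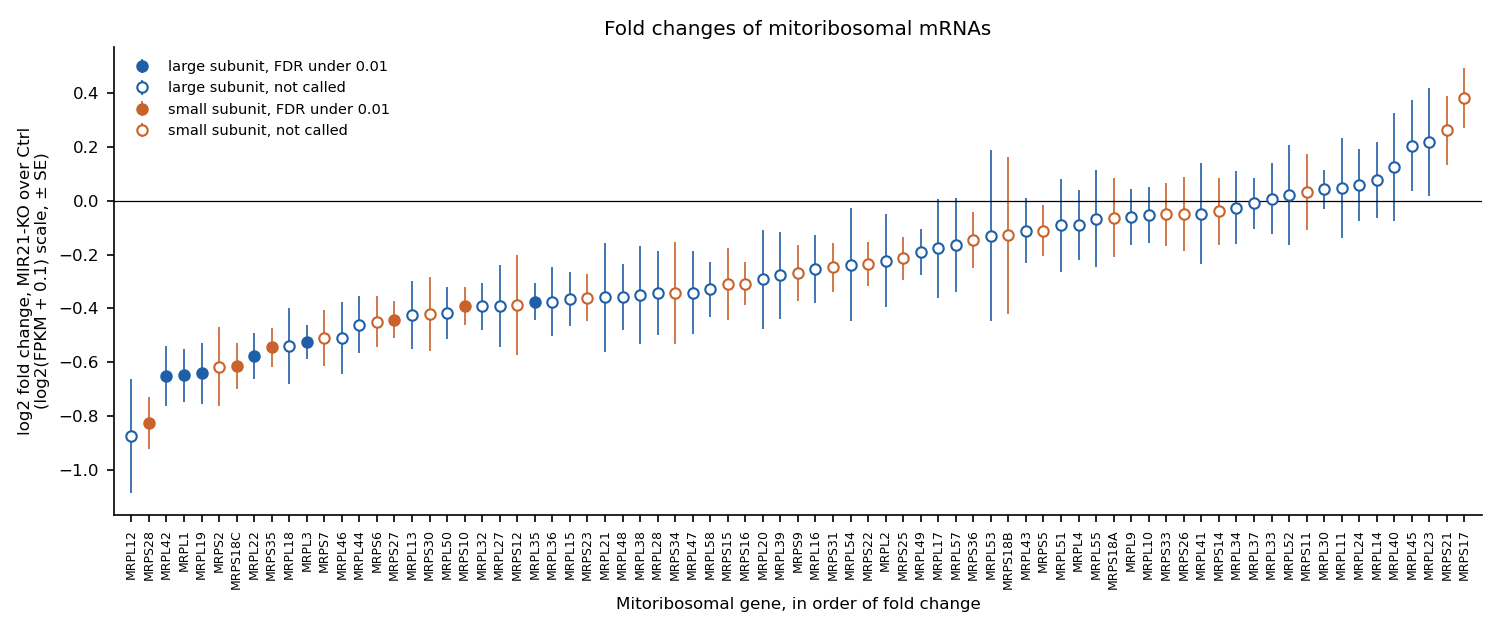
Log2 fold changes (MIR21-KO over Ctrl, log2(FPKM + 0.1) scale, vertical axis) of the 77 mitoribosomal genes tested, ordered along the horizontal axis. Points are limma estimates with SE, blue for the large and orange for the small subunit, filled where the FDR was under 0.01, and 65 of the 77 lie below 0, from -0.87 for MRPL12 to 0.38 for MRPS17.

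Among the large subunit genes, 40 of 49 were below 0 and 6 fell at an FDR under 0.01. MRPL3 (ENSG00000114686, chr3:131462212-131502983), the counterpart of a bacterial protein close to the catalytic centre, had the smallest FDR of them. It measured 42.8, 42.9 and 41.1 FPKM in Ctrl and 29.04, 29.09 and 29.96 FPKM in MIR21-KO replicates 1 to 3. The groups were thus clearly apart, with little spread inside either of them, and the log2 fold change was -0.52 ± 0.063 (SE, FDR = 0.00162, limma). MRPL22 (ENSG00000082515, chr5:154941070-154969411), which lines the tunnel where the nascent chain leaves, had 10.13, 10.49 and 10.23 FPKM in Ctrl and 7.36, 6.93 and 6.32 in MIR21-KO (-0.58 ± 0.085, FDR = 0.00328). MRPL1 (ENSG00000169288, chr4:77862520-77952790), part of the mobile arm on the side where tRNA exits, had 15.2, 16.9 and 16.3 FPKM in Ctrl and 11.26, 10.51 and 9.13 in MIR21-KO (-0.65 ± 0.099, FDR = 0.00393). For both, every MIR21-KO library was below every Ctrl library.

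MRPL42 (ENSG00000198015, chr12:93467488-93516213), a protein found only in mitochondrial ribosomes, had the lowest FPKM of the called mRNAs, with 4.5, 4.36 and 4.33 in Ctrl and 2.64, 3.09 and 2.58 in MIR21-KO. This rank reflects a listed length of 16393 bases. In reads MRPL42 was not the lowest, with 548 to 970 per library, compared with 113 to 215 for the called MRPS28. The log2 fold change of MRPL42 was -0.65 ± 0.11 (FDR = 0.0056). MRPL19 (ENSG00000115364, chr2:75646783-75690851) had its highest MIR21-KO value in replicate 3, which still lay below Ctrl: the values were 20.2, 19.0 and 18.3 FPKM in Ctrl and 11.5, 11.2 and 14.4 in MIR21-KO (-0.64 ± 0.11, FDR = 0.00642). MRPL35 (ENSG00000132313, chr2:86199355-86213794) showed the smallest called decrease, 22.9%, from 16.5 ± 0.474 to 12.7 ± 0.44 FPKM (SD, n = 3 each, FDR = 0.00745). MRPL19 and MRPL35 both have bacterial counterparts, and in neither did the groups overlap.

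Among the small subunit genes, 25 of 28 were below 0 and 5 fell at an FDR under 0.01. MRPS28 (ENSG00000147586, chr8:79918717-80030289) showed the largest called decrease, 43.6%. Its values were 8.69, 9.93 and 8.65 FPKM in Ctrl and 4.97, 5.48 and 4.80 FPKM in MIR21-KO, with a log2 fold change of -0.83 ± 0.098 (FDR = 0.0015). No MIR21-KO library came near the Ctrl libraries for this gene, although 35.8% of its exonic bases also belong to another annotated gene on the same strand, so that part of the reads may be uncertain. MRPS35 (ENSG00000061794, chr12:27710773-27756295), specific to mitochondria, was the most abundant called mRNA, with 67.5, 73.5 and 70.9 FPKM in Ctrl and 46.7, 49.9 and 48.6 in MIR21-KO (-0.54 ± 0.072, FDR = 0.00219). MRPS27 (ENSG00000113048, chr5:72219409-72320646), a pentatricopeptide repeat protein, had 22.6, 22.2 and 21.4 FPKM in Ctrl and 16.9, 16.1 and 15.7 in MIR21-KO (-0.44 ± 0.068, FDR = 0.00387). MRPS10 (ENSG00000048544, chr6:42206801-42217865), with a bacterial counterpart in the head of the subunit, had 26.7, 26.7 and 27.5 FPKM in Ctrl and 21.7, 20.4 and 19.4 in MIR21-KO (-0.39 ± 0.071, FDR = 0.00723). In all of these the groups were separate.

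MRPS18C belongs to a family of 3 paralogs of the bacterial S18 protein, which sit at different places of the mitochondrial ribosome. MRPS18C (ENSG00000163319, chr4:83455932-83469735) fell from 8.46, 8.20 and 8.32 FPKM in Ctrl to 5.87, 5.12 and 5.28 in MIR21-KO (-0.61 ± 0.086, FDR = 0.0028). MRPS18A, a large subunit protein in spite of its name, had 20.4, 22.3 and 21.9 FPKM in Ctrl and 24.98, 20.99 and 16.63 in MIR21-KO, so that its groups overlapped (-0.06 ± 0.15, FDR = 0.778). MRPS18B was low, with 13 to 26 reads per library and overlapping values, 0.658 to 1.08 FPKM in Ctrl and 0.562 to 1.01 in MIR21-KO (-0.13 ± 0.29, FDR = 0.772). The paralogs were not tested against each other.

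**Figure D2:**
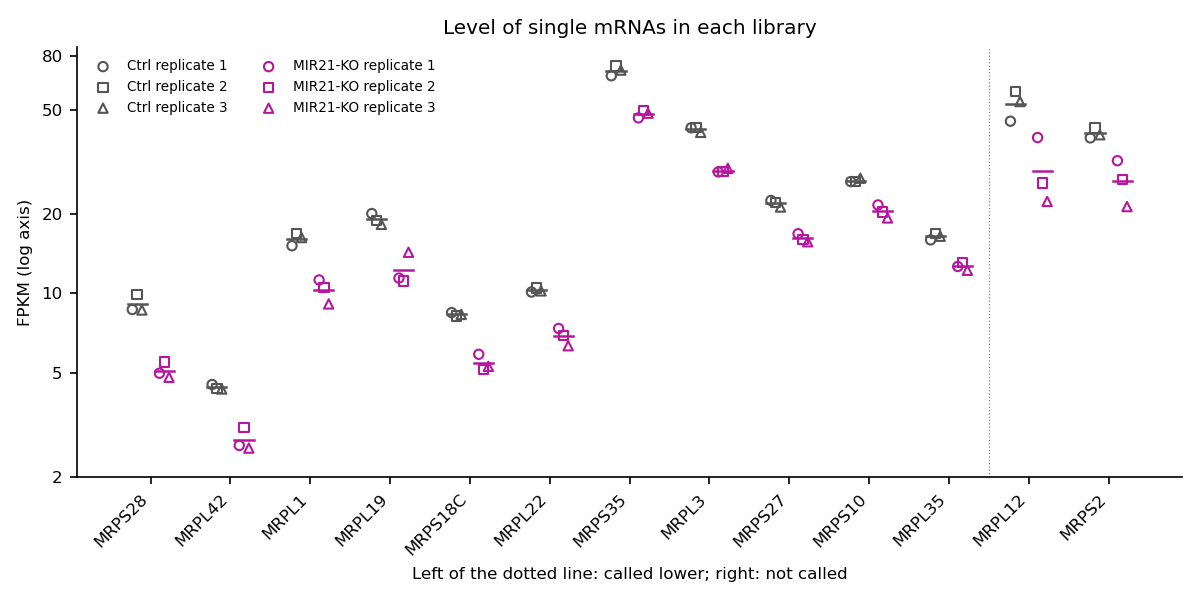
FPKM (log axis) of the 11 mitoribosomal mRNAs called lower and, right of the dotted line, of MRPL12 and MRPS2, which were not called. Each symbol is a library, grey for Ctrl and magenta for MIR21-KO, and horizontal bars are group means; in all 13 genes the 3 MIR21-KO libraries lie below the 3 Ctrl libraries, and for MRPL12 and MRPS2 these are widely spread, with replicate 1 highest and replicate 3 lowest.

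The lowest fold change of all members did not pass the test. MRPL12, the flexible stalk protein that recruits translation factors, had 45.3, 59.0 and 53.8 FPKM in Ctrl and 39.3, 26.4 and 22.4 in MIR21-KO (-0.87 ± 0.21, FDR = 0.0213). The groups did not overlap, but the MIR21-KO libraries were far apart, and 68.2% of its exonic bases are shared with another annotated gene on the same strand. MRPL10, which anchors MRPL12, went from 26.4 ± 0.883 FPKM to 25.6 ± 3.26 (SD, 3 libraries each), with a log2 fold change of -0.05 ± 0.1 (FDR = 0.728). Of the 3 stalk genes 0 were called by limma, and 1 had an unadjusted p under 0.05, the median being -0.05.

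Other parts of the large subunit varied as much. The 7 genes of the central protuberance, a region that contacts the small subunit, had a median of -0.36 with 6 below 0, yet limma called 0 of them and 5 had an unadjusted p under 0.05. MRPL58 of this region, a peptidyl-tRNA hydrolase that frees stalled ribosomes, had 54.7 ± 3.27 FPKM in Ctrl and 43.6 ± 4.86 in MIR21-KO without overlap (-0.33 ± 0.1, FDR = 0.0487). The 6 genes around the exit tunnel had a median of -0.11 with 3 below 0, and MRPL22 was called. MRPL45, which tethers the ribosome to the inner membrane, had 15.4, 15.2 and 13.6 FPKM in Ctrl and 22.3, 14.7 and 14.9 in MIR21-KO (0.20 ± 0.17, FDR = 0.393). Its MIR21-KO replicate 1 stood alone above the rest, and pseudogenes named after it held 32.8% as many reads as the gene itself.

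In the small subunit, MRPS12, a protein of the decoding centre, ranged from 84.9 to 95.2 FPKM in Ctrl and measured 87.3, 68.4 and 51.7 in MIR21-KO. Replicate 1 overlapped with Ctrl (-0.39 ± 0.18, FDR = 0.158). MRPS17, the only member higher in every MIR21-KO library, had 3.82, 4.78 and 4.30 FPKM in Ctrl and 5.85, 5.68 and 5.32 in MIR21-KO (0.38 ± 0.11, FDR = 0.0386). MRPS2 was lower in every MIR21-KO library (40.7 ± 1.83 against 26.9 ± 5.31 FPKM, FDR = 0.0193) and neither gene passed an FDR of 0.01. MRPS17 and MRPS2 were singled out after their values were seen. Of the exonic bases of MRPS17, 27% are shared with other genes on the same strand.

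A symbol does not always give the place of the protein. MRPS30 sits in the large subunit, and its mRNA had 7.44 ± 0.531 FPKM in Ctrl and 5.58 ± 0.975 in MIR21-KO (-0.42 ± 0.14, FDR = 0.0572). MRPS36 is now known as a subunit of a Krebs cycle dehydrogenase, the alpha-ketoglutarate dehydrogenase complex, and had 18.6 ± 2.17 and 16.7 ± 0.963 FPKM (-0.15 ± 0.1, FDR = 0.326). By symbol, the median log2 fold change was -0.25 for the large and -0.29 for the small subunit. By place, with MRPS30 and MRPS18A in the large subunit and MRPS36 left out, 6 of 51 large and 5 of 25 small subunit genes were called lower, with medians of -0.25 and -0.31. No test of a difference between the subunits was made. Members with a bacterial counterpart had a median of -0.31 with 8 of 46 called lower, and those specific to mitochondria one of -0.23 with 3 of 31 called.

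The most abundant members, which weigh most in any sum, were not called. MRPS34, MRPL51 and MRPS26 had means of 127.3, 113.2 and 95.0 FPKM over the 6 libraries. MRPS34 measured 130.2 to 151.6 FPKM in Ctrl and 139.7, 117.7 and 83.3 in MIR21-KO (FDR = 0.212). MRPL51 measured 105.2 to 127.9 in Ctrl and 134.0, 112.0 and 85.3 in MIR21-KO (FDR = 0.721), and MRPS26 89.8 to 101.0 and 108.8, 95.9 and 76.8 (FDR = 0.813). All of them overlapped between the groups and ranged more widely among MIR21-KO than among Ctrl libraries. At the other end, MRPL38, of the central protuberance, had 1.13 ± 0.139 FPKM in Ctrl and 0.864 ± 0.0184 in MIR21-KO with 38 to 55 reads per library (FDR = 0.191), and only MRPS18B and MRPS24 were lower. Another gene on the same strand shares 37.5% of the exonic bases of MRPL38, so part of its reads may be uncertain too.

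Summed over all members, the mitoribosomal mRNAs came to 2201, 2461 and 2340 FPKM in Ctrl and 2332, 2031 and 1684 in MIR21-KO replicates 1 to 3. MIR21-KO replicate 1 thus lay within the range of Ctrl, and replicates 2 and 3 below it. They took 0.4997% to 0.549% of the reads in Ctrl and 0.387% to 0.475% in MIR21-KO. By this share replicate 1, too, was below every Ctrl library. The measures differ for it, as FPKM is scaled by gene length and by the authors' own library sizes. The ratio of large to small subunit FPKM was 1.67, 1.70 and 1.71 in Ctrl and 1.83, 1.77 and 1.72 in MIR21-KO. It was higher in each MIR21-KO library than in every Ctrl library, narrowly so in replicate 3, and by place it was 1.80 to 1.85 in Ctrl and 1.88 to 1.98 in MIR21-KO. Without the 3 most abundant members, MIR21-KO replicate 3 (2.13) lay inside the range of Ctrl (2.11 to 2.19). By symbol, the members tested had a median GC content of 50.7% in the large and 46.2% in the small subunit. The MIR21-KO libraries also differed from each other along GC content, as described below. Whether GC content bears on the ratio was not tested.

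**Figure D3:**
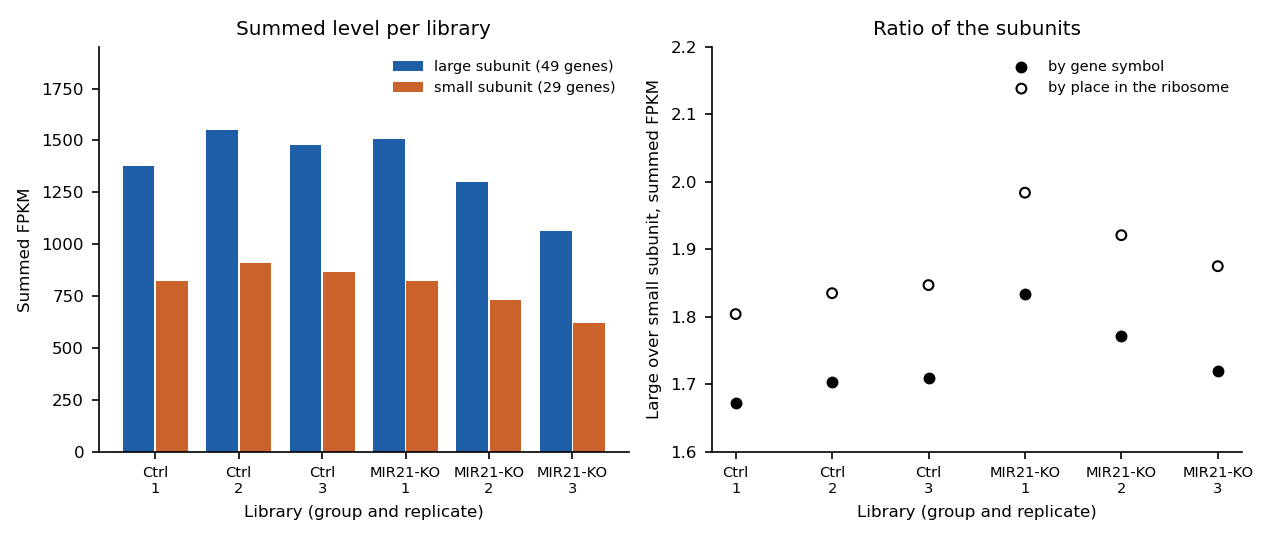
Left, summed FPKM of the 49 large and 29 small subunit genes in each library (bars, axis from 0); right, their ratio in each library by gene symbol (filled) or by place in the ribosome (open), on an axis that does not start at 0. Of the MIR21-KO libraries, replicate 1 is highest (1509 FPKM for the large subunit, ratio by symbol 1.83) and replicate 3 lowest (1065 FPKM, 1.72).

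The MIR21-KO libraries differed from each other in a way that touched most members. In 55 of the 77, replicate 1 was the highest and replicate 3 the lowest of the MIR21-KO libraries, and in 58 replicate 3 was the lowest of all 6 libraries. Replicate 1 exceeded the Ctrl mean in 33 members and replicate 3 in 4. Relative to the Ctrl mean, the median log2 ratio of the members was -0.06, -0.26 and -0.44 in MIR21-KO replicates 1 to 3, compared with -0.02, -0.03 and -0.03 over all genes. The number of members below 0 was 50 when MIR21-KO replicate 3 was left out and 72 when replicate 1 was left out.

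This ranking of the libraries went along with the GC content of the transcripts. Across the 77 members, Spearman's rho between the GC content of the longest transcript and the log2 ratio of MIR21-KO replicate 3 to replicate 1 was -0.62. The same rho over 11704 protein-coding genes was -0.59, and these genes share the libraries and are not replicates. All 11 called members had a GC content of 38.3% to 43.3%, below the members' median of 47.7%. Below that median 11 of 38 members were called lower, and at or above it 0 of 39 by limma, of which 6 had an unadjusted p under 0.05. The median log2 fold changes below and above it were -0.37 and -0.13. Relative to the Ctrl mean, the median log2 ratios in MIR21-KO replicates 1 to 3 were -0.24, -0.35 and -0.49 below it. At or above it they were 0.10, -0.115 and -0.38, so the order of the libraries was the same on both sides. Among all genes split at the same GC content, 10.4% of the 7412 below and 6.7% of the 8543 at or above it were called lower, with medians of -0.11 and 0.07.

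When the trends of each library on GC content and gene length were removed, 66 of the 77 members were below 0 and the median was -0.23. Then 20 members were called lower (0 higher by limma, 2 with an unadjusted p under 0.05), 9 of them below and 11 at or above the members' median GC content. With this correction 13.4% of all genes were called lower. Only 6 of the 11 were among them, namely MRPL1, MRPL3, MRPL19, MRPS10, MRPS28 and MRPS35. MRPL12 (-1.03, FDR = 0.000404), MRPS2 (-0.74) and MRPS34 (-0.50) were among the 14 others. A fit on recovered reads (voom) without that correction called 14 members lower, all 11 and in addition MRPL12, MRPS2 and MRPS7, the last of these named after its values were seen. In either direction, voom called 3461 of all genes and the test on FPKM 2568, so calls rose across the table. Which mRNAs passed the threshold thus depended on the removal of the trends, while most members stayed below 0 with either fit.

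**Figure D4:**
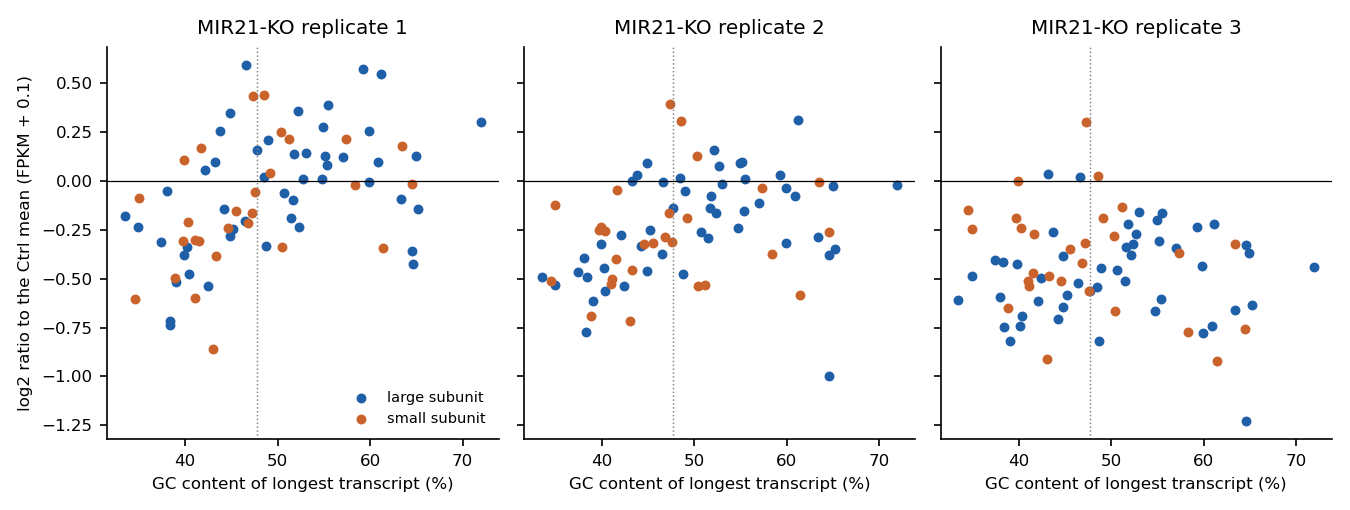
Log2 ratio of each MIR21-KO library to the Ctrl mean (log2(FPKM + 0.1) scale, vertical axis) against the GC content of the longest transcript (horizontal axis, %) for the 77 members, blue for the large and orange for the small subunit, with the median GC content dotted. Members rich in GC lie around 0 in replicate 1 and below it in replicate 3; Spearman's rho is 0.48, 0.42 and -0.01 in replicates 1 to 3.

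The number of calls depended on single libraries. Leaving out any Ctrl library or MIR21-KO replicate 2 left 1 member called, MRPS28 each time, with 25 to 30 members lower at an unadjusted p under 0.05. Without MIR21-KO replicate 1 or 3 there were 15 and 13 calls. MRPS28 was called in 19 of 20 alternative fits, with FDRs of 0.00037 to 0.0102.

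To place the ribosomal proteins in their pathway, 63 other genes of mitochondrial gene expression were examined, of which 62 were tested. Of these, 52 were below 0, 8 were called lower and 0 higher by limma, and 32 had an unadjusted p under 0.05, all of them lower. Such a p was found, in either direction, for 5756 of the 11719 protein-coding genes tested. The 8 make 12.9% of the list, close to the 10.57% of protein-coding genes called lower. The median log2 fold change was -0.30. The 6 genes of mitochondrial transcription and RNA stability were all below 0 and 3 were called. They were TFAM, which packages and transcribes mitochondrial DNA (22.9 ± 1.38 to 14.1 ± 1.33 FPKM, log2 fold change -0.70, FDR = 0.00236), LRPPRC, which stabilises mitochondrial mRNAs (32.4 ± 1.05 to 20.9 ± 1.84, -0.63, FDR = 0.00239), and the transcription initiation factor TFB2M (-0.46, FDR = 0.0077).

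Aminoacyl-tRNA synthetases of mitochondria had a median of -0.38, and 4 of 16 fell. The decreases were led by IARS2 for isoleucine (56.6 ± 1.87 to 37.5 ± 3.84 FPKM, -0.60, FDR = 0.00394), EARS2 for glutamate (-0.59, FDR = 0.00399) and YARS2 for tyrosine (-0.56, FDR = 0.00251). Of 11 translation factors and 24 assembly and rRNA modification factors limma called 0, with medians of -0.23 and -0.27, and 5 and 11 of them had an unadjusted p under 0.05. Among 5 ribosomal subunits with other symbols, the pentatricopeptide repeat protein PTCD3 fell from 10.1 ± 0.332 to 6.79 ± 0.343 FPKM (-0.57, FDR = 0.00272). The GTP-binding small subunit protein DAP3 (-0.12), AURKAIP1 (-0.14), CHCHD1 (-0.15) and GADD45GIP1 (-0.09) were not called, and all except DAP3 overlapped between the groups. These lists, too, lost their calls when a Ctrl library or MIR21-KO replicate 2 was left out.

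Cytosolic ribosomal proteins, measured in the same libraries, moved the other way on the whole. The list was taken by gene symbol, which also let in genes named as similar to a ribosomal protein. Of 82 tested, 72 were above 0 with a median of 0.30. Limma called 1 higher, RPL28 (0.89), and 1 lower, RPL7L1 (-0.56), which is such a similar gene. Their summed level was 23461 to 26237 FPKM in Ctrl and 39079, 32355 and 25181 in MIR21-KO replicates 1 to 3. As for the mitoribosomal sum, replicate 1 was the highest and replicate 3 the lowest of its group, and replicate 3 lay inside the range of Ctrl. The number above 0 was 71 or 72 under the other scalings, 66 without MIR21-KO replicate 1 and 75 without replicate 3. The number called higher depended more on the fit and on a single library: it was 8 with voom, 9 with trends removed, 28 without MIR21-KO replicate 3 and 41 with both trends and that library removed. With no filter, with the replicate block, or without trend and robust fitting, limma called 0 higher. The same held when any Ctrl library or MIR21-KO replicate 2 was left out. In the fits with 0 calls, 9 to 22 were higher at an unadjusted p under 0.05. No test compared the lists.

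**Figure D5:**
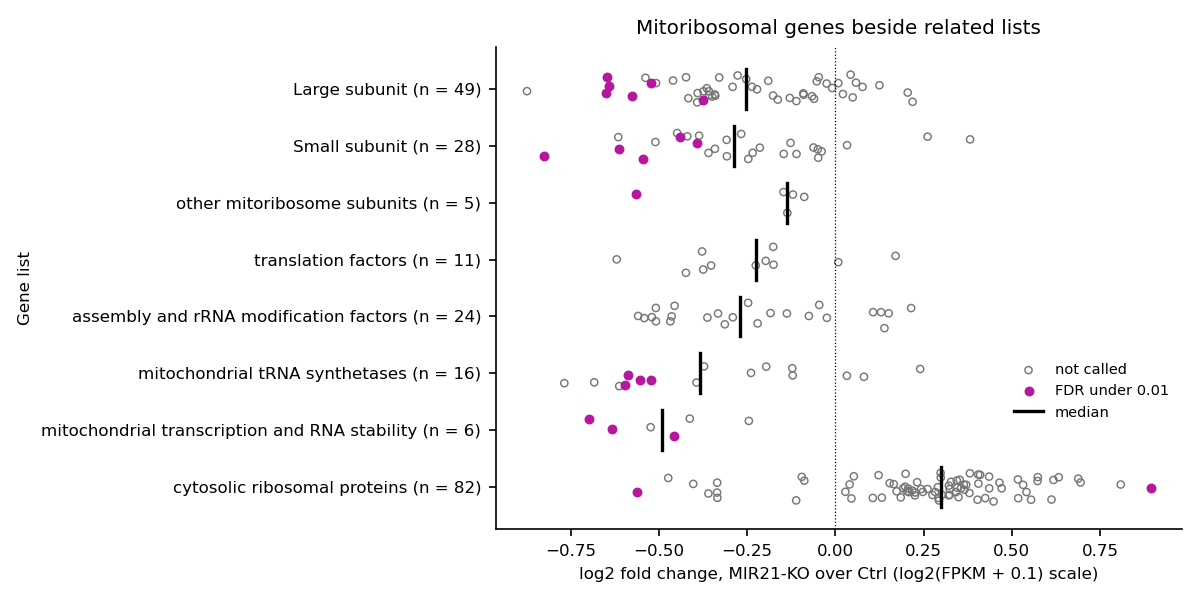
Log2 fold changes (MIR21-KO over Ctrl, log2(FPKM + 0.1) scale, horizontal axis) of each tested gene in the mitoribosomal and related lists (vertical axis, n in brackets). Filled points passed an FDR of 0.01 and bars are medians, which run from -0.49 for mitochondrial transcription and RNA stability to 0.30 for cytosolic ribosomal proteins.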

How the data were processed

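PolyA RNA-seq libraries of A549 cells, 3 Ctrl and 3 MIR21-KO, were grouped and numbered by their titles. Per the labels, RNA was selected with oligo(dT), made into strand-specific libraries and sequenced on an Illumina HiSeq. The submitters' processing notes list cutadapt 1.14, HISAT2 2.1.0, SAMtools 1.5, featureCounts 1.5.3, edgeR 3.18.1 and build hg38. Counting settings and the annotation are not given in the sources used here, nor is the treatment of reads shared by overlapping genes or pseudogenes. The authors deposited FPKM per gene and library, scaled with library sizes of their own, together with gene lengths. Columns with the authors' log2 fold change, p-value and FDR were also deposited and were not used. FPKM times length gave whole reads for 100% of values (tolerance 0.01), so reads were recovered. A count of 0 still allows 3 reads, or 0.219 to 0.279 FPKM on a gene of 1 kb, and such floors cover counting error only.

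The mitoribosomal genes, the lists and the tests were chosen with earlier results of these data known. The test was limma 3.58.1 (R 4.3.3) on log2(FPKM + 0.1), two-sided and without covariates, with trend and robust fitting in eBayes. It covered the 16006 genes whose mean reached 0.5 FPKM, with Benjamini-Hochberg adjustment over all of them and calls at an FDR under 0.01. Named were all called members, the 3 highest and 3 lowest by mean FPKM, a list of members with known roles, the other mitoribosome subunits and at most 3 called genes per list. Further members were named for a miRNA site, a shared promoter word or a neighbour. Genes were placed by GENCODE 29 (GRCh38), which matched 57836 of 58174 identifiers and also gave exons, 3′ UTRs and GC content. GC and length trends were removed per library by lowess with a span of 0.3. Alternatives were other pseudocounts, filters and scalings, protein-coding genes only, a replicate block, limma without trend, voom, trend removal, an FDR of 0.05 and leaving out each library. On simulated reads for 16077 genes with 200 changed 2-fold, the test recovered 147 with 4 false calls, and voom 198 with 1. The simulation used a single dispersion for all genes, no GC or length trend, and changes larger than the members' median. Its rates therefore do not describe the real libraries. Replicate numbers did not pair the libraries. Protein sequences were not used here. Plots were made in Python 3.11.15 (matplotlib 3.10.9).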

Additional observations from a re-analysis of the deposited data

How the results depend on the processing

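The number of mitoribosomal genes called was 11 (6 large, 5 small subunit), of the other lists 8 and of all genes 2568. Without a filter, where more genes are tested, 7 members and 3 large subunit genes were called, and without trend and robust fitting 6, 3 large and 3 small, with 5 of the lists. With protein-coding genes only there were 18 (10 large, 8 small, lists 18), with 3253 of all genes tested. After scaling by total reads there were 19 (10 small, lists 13, all genes 2718), and with voom 14 (lists 13, all genes 3461). Removing GC and length trends gave 20 (12 large, 8 small; lists 20; all genes 3958), and together with leaving out MIR21-KO replicate 3, an alternative chosen after seeing the data, 18 (11 large; lists 20). At an FDR under 0.05 there were 26, 15 large and 11 small, 1 of them higher (lists 25; all genes 5114). Fits that each left out a library called 1 to 15 members, 0 to 7 large and 1 to 8 small subunit genes, 0 to 14 of the lists and 768 to 3400 of all genes. Where these counts were 0, at least 14 large subunit genes and 26 of the lists had an unadjusted p under 0.05. What caused these shifts was not tested.

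With the replicate number as a block, limma called 0 members (0 large, 0 small), 0 of the lists and 651 of all genes, while 28 members (17 large, 11 small) and 29 list genes were lower at an unadjusted p under 0.05. Same-numbered libraries did not deviate together (correlations -0.17, -0.02 and -0.02), so the numbers pair nothing. The block with trends removed gave 3 small subunit genes.

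The median stayed negative under every alternative, from -0.35 without MIR21-KO replicate 1 to -0.15 without replicate 3. The subunit ratio was 1.69 in Ctrl and 1.77 in MIR21-KO by symbol, 1.83 and 1.93 by place, and 2.15 and 2.27 without the 3 most abundant genes. None of the 11 called members changed sign in any alternative. Of the 77 members, 15 turned positive without MIR21-KO replicate 3, 7 turned negative without replicate 1, and 7 changed sign with trends removed, with or without the block. In every other alternative at most 6 did. The following are the genes named in the text that changed sign. With trends removed, also with the block, these were MRPS36 (0.0036) and MRPS33 (0.064), which were at 0.11 and 0.23 when MIR21-KO replicate 3 was missing too. Scaling by total reads turned HELQ (-0.017), MRPL52 (-0.015) and MRPS11 (-0.0035) negative. When single libraries were left out, log2 fold changes ranged from -0.31 to 0.064 for MRPS18B, above 0 without MIR21-KO replicate 2 or Ctrl replicate 1 (0.035), from -0.14 to 0.22 for MRPL52, from -0.076 to 0.19 for MRPS11 and from -0.19 to 0.18 for HELQ (-0.0092 with trends and MIR21-KO replicate 3 removed). Of these fits, the other named genes were above 0 only in the one without MIR21-KO replicate 3: AURKAIP1 (-0.33 to 0.063), CHCHD1 (-0.32 to 0.090, and 0.11 with trends removed too), GADD45GIP1 (-0.29 to 0.11), MRPL9 (-0.13 to 0.045), MRPL10 (-0.15 to 0.031), MRPL17 (-0.35 to 0.015), MRPL51 (-0.24 to 0.083), MRPL57 (-0.26 to 0.023), MRPS18A (-0.20 to 0.091), MRPS26 (-0.16 to 0.088) and MRPS33 (-0.16 to 0.060). MRPL38, MRPL42 and MRPS18B have no value at 5 FPKM or more. MRPS24 and MRPS18B rest on few reads, for a reason that was not tested. Of tests on the recovered reads, voom was the one run.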

Other observations

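Several mitoribosomal genes share a promoter region with a gene on the other strand. Of the 77 members tested, 17 (22.1%) start within 1000 bases of an oppositely oriented protein-coding neighbour, compared with 9.98% of 11715 protein-coding genes. Of their partners 15 were tested, among them MRPL46 and MRPS11, members that are each other's partner. Of the 15, 9 had a log2 fold change below 0 and 4 were called lower, compared with 51.5% and 8.38% of all genes. The 4 were the chaperonin subunit TCP1 (-0.81, FDR = 0.000339, limma) beside MRPL18 (-0.54, FDR = 0.0271), the endonuclease subunit EME1 (-0.58) beside MRPL27 (-0.39), the amino acid transporter SLC7A7 (-1.89) beside MRPL52 (0.02) and the spindle protein SKA3 (-0.93) beside MRPL57 (-0.16). None of these 4 members was called. The size of the SLC7A7 change depended on the pseudocount, with a log2 fold change of -0.83 at 1 FPKM and -2.20 at 0.01 FPKM. In turn HELQ (0.02), 76 bases from the called MRPS18C, was not called. MRPL46 (-0.51, FDR = 0.0281) and MRPS11 (0.03, FDR = 0.88) belong to opposite subunits and start 34 bases apart.

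Beside the YY1 word, 4 other promoter words were counted on both strands. The ETS word CCGGAAGT was found in 12 of 69 members (17.4%) and 6.97% of protein-coding genes, the NRF1 word GCGCATGC in 6 (8.7%) and 4.89%, the E-box CACGTG in 9 (13%) and 10.9%, and the SP1 word GGGCGGG in 35 (50.7%) and 50.3%. Pseudogenes named after members were numerous, 75 for 34 members, but held 117 to 173 reads per library in all, and more than 5% of the reads of the gene itself for MRPL45 and MRPS31 (6.04%) only.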
